A study of Mus musculus with 28 samples.

Results

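The Hox cluster genes are the genes whose symbol is Hoxa, Hoxb, Hoxc or Hoxd followed only by a number. They were 39 of the 54109 genes in the reprogramming table and 39 of the 54838 genes in the table of induced pluripotent stem cells (iPSC). Membership was decided by the symbol. The mouse genome holds them in 4 clusters, given here in mm10 (GRCm38) from RefSeq: Hoxa on chromosome 6 (11 genes), Hoxb on chromosome 11, 96194316 to 96368254 (10 genes), Hoxc on chromosome 15, 102921131 to 103036856 (9 genes), and Hoxd on chromosome 2, 74668225 to 74765142 (9 genes). The number in a symbol is the paralogue group, which names the position along the cluster. Groups 1 to 3 are called anterior here (8 genes), groups 4 to 8 central (15 genes) and groups 9 to 13 posterior (16 genes).

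Hox genes encode homeodomain transcription factors that give cells along the body axis and the limbs their positional identity. Within a cluster the genes are switched on in the embryo in the order in which they lie, anterior groups first, and posterior groups are used in the trunk, the tail and the distal limb. Fibroblasts keep much of the Hox pattern of the place they came from, and pluripotent stem cells hold the clusters largely silent under Polycomb and trithorax marks.

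RNA sequencing of total RNA depleted of ribosomal RNA was analysed here for 18 libraries. Mouse embryonic fibroblasts, from embryos of E13.5 to E15.5, had the alleles Oct4-GFP and Rosa26-rtTA with either an OKSM or an OKS allele induced by doxycycline, and were reprogrammed on irradiated feeder cells. The 4 reprogramming groups of 3 libraries were doxycycline at 1 µg/ml (DOX), DOX with the inhibitor UNC0638 at 1 µM (DOX UNC), DOX with the 3 compounds called 3C (DOX 3C: 250 nM of TGF-b RI kinase inhibitor II, 50 µg/ml of L-ascorbic acid, and CHIR99021, a GSK3 inhibitor, at 3 µM), and DOX with 3C and UNC0638 (DOX 3C UNC). UNC0638, called UNC below, inhibits the H3K9 methyltransferases G9a and GLP, and the study compared its effect in both media. The 2 iPSC groups of 3 libraries came from reprogramming with the solvent DMSO or with UNC for the first 48 hours. The labels do not tell which library carried OKSM or OKS, when the 12 reprogramming libraries were harvested, or whether replicates were separate cultures, so p-values measure the spread between these libraries, which may be technical. For the iPSC the treatment note gives a harvest at 48 hours while the cell type label gives iPSC. Another 10 samples, of H3K9me2, were not analysed here.

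Depth ranged from 10616764 to 20211641 reads for the 12 reprogramming libraries, and the 6 iPSC libraries had 21592023 to 25408585. The 12 pluripotency markers summed to 203 to 457 CPM (reads scaled to the same library total) in the reprogramming libraries and 5759 to 6367 CPM in the iPSC libraries. They include Pou5f1 (Oct4) and Sox2, which the induced allele also encodes. Reads of the allele and of the endogenous genes were not told apart. Dppa3 and Dppa5a were at 0 in each reprogramming group. In DOX, Esrrb, Zfp42, Lin28a, Sall4 and Utf1 were at 0 as well, and 3 of the 12 markers had enough reads to be tested in the reprogramming table. The 12 fibroblast markers were all detected in every group and summed to 14513 to 15442 CPM in DOX, 16697 to 17449 in DOX UNC, 9166 to 10075 in DOX 3C, 12161 to 12991 in DOX 3C UNC, 5953 to 6544 in DMSO iPSC and 8255 to 9618 in UNC iPSC. Feeder cells and reprogramming cells were sequenced together, so fewer cells expressing a gene and less RNA of it per cell cannot be told apart in any result below.

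The clusters also hold microRNA genes, and their sequences are shown because some of the Hox genes described below overlap or adjoin them. Sequences are the mature strands from RefSeq (GRCm38.p6), 5′ to 3′, with the seed (bases 2 to 8) in capitals.
miR-615-5p, inside Hoxc5: gGGGGUCCccggugcucggauc
miR-615-3p, inside Hoxc5: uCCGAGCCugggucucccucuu
miR-10a-5p, inside Hoxb3: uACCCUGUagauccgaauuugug
miR-10b-5p, inside Hoxd3 and Hoxd4: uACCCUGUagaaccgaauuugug
miR-196a-5p, next to Hoxb9 and in the Hoxc cluster: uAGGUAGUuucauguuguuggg
miR-196b-5p, in the Hoxa cluster: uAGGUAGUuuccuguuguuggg
miR-10a-5p and miR-10b-5p share the seed ACCCUGU, and miR-196a-5p and miR-196b-5p share AGGUAGU. Total RNA libraries of this kind are not made to capture mature microRNAs, and few reads were assigned to these genes: 1 read to Mir615, 5 to Mir10a, 36 to Mir196a-1 and 0 to Mir10b and Mir196b over the 12 reprogramming libraries. In the 6 iPSC libraries Mir196a-1 held 99 reads.

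All 39 Hox genes together took 215 ± 8.77 CPM in DOX, 209 ± 21.6 in DOX UNC, 211 ± 10.1 in DOX 3C and 223 ± 14.5 in DOX 3C UNC (mean ± SD, n = 3), and the ranges of the 4 groups overlapped. The Hoxa cluster had the largest share, 97.5 ± 11.9 CPM in DOX, then Hoxc with 53.2 ± 6.97, Hoxd with 35.9 ± 3.49 and Hoxb with 28.3 ± 3.73. The Hoxc sum was 62.4 to 71.6 CPM in DOX 3C UNC and 45.2 to 60.7 over the other 9 reprogramming libraries, with no overlap. The Hoxd sum was lowest in DOX 3C UNC, 26.8 to 30.4 CPM, below all DOX libraries (33.5 to 39.9) and all DOX UNC libraries (30.5 to 36.9) and overlapping DOX 3C (29.8 to 36.1). Posterior genes gave 50.1 ± 4.25% of the Hox reads in DOX, central genes 40.7 ± 3.28% and anterior genes 9.19 ± 1.04%. Reads were not divided by transcript length, because no transcript lengths were available, so levels are compared here between samples and not between genes.

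Of the 39 genes, 35 passed the filter of at least 10 normalised counts in at least 3 of the 12 libraries. The other 4, all anterior or in group 4, were Hoxb1 (0 reads in all 12 libraries), Hoxd1 (1 read), Hoxd4 (3 reads) and Hoxd3 (24 reads). Hoxb1 is a hindbrain gene, and Hoxd3 and Hoxd4 overlap each other and Mir10b in the annotation.

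**Figure D1:**
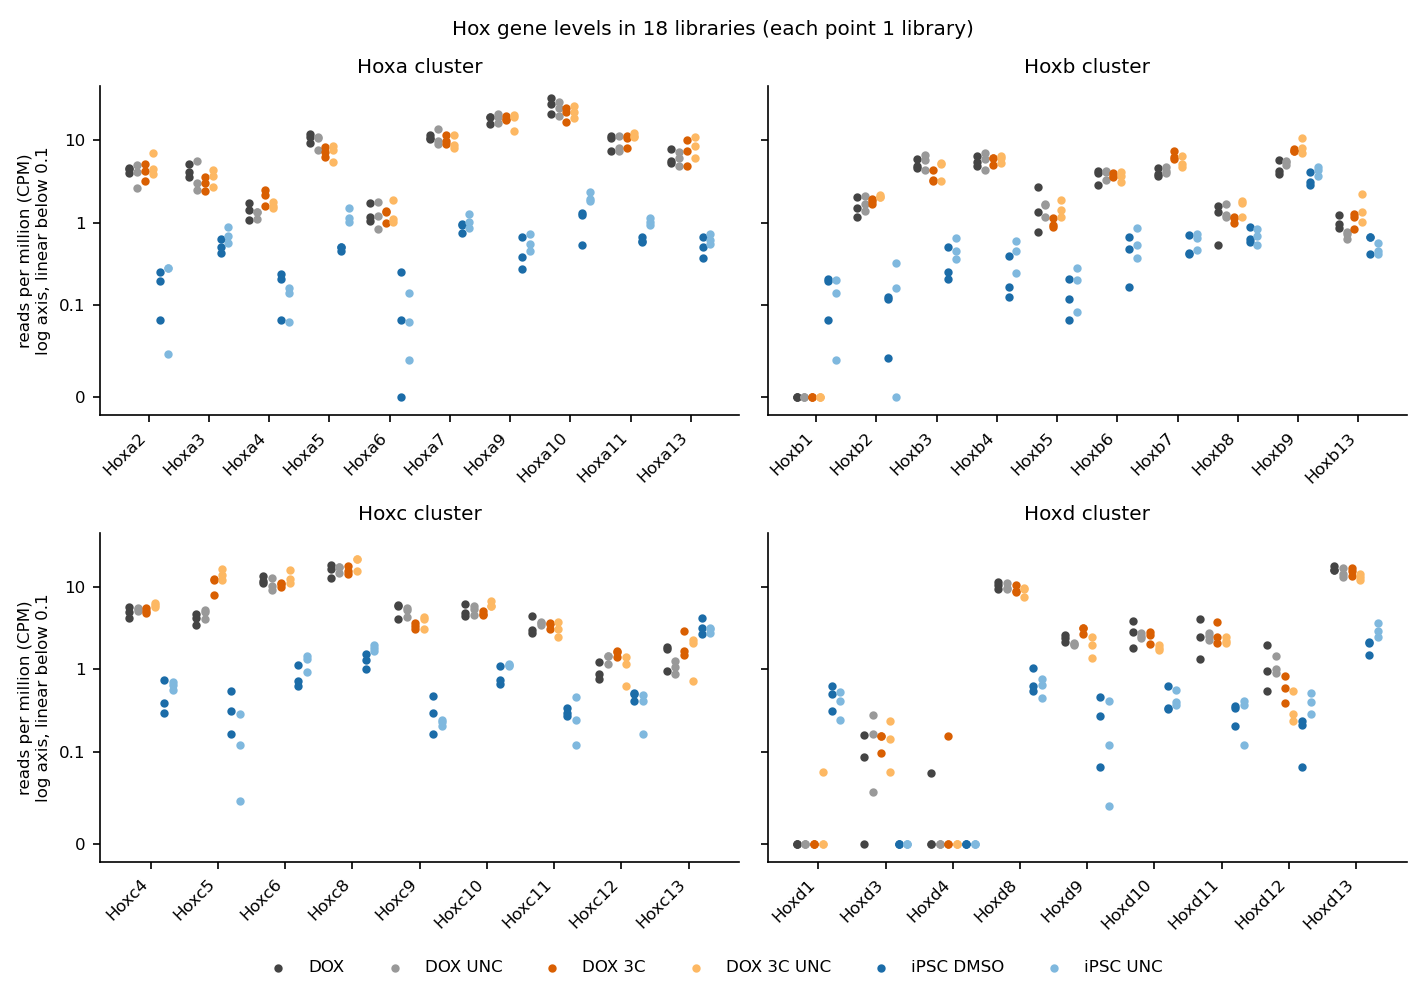
Levels of 38 Hox genes in CPM (log axis, linear below 0.1) in 18 libraries, each point 1 library and each color 1 group. The 12 reprogramming libraries lie above the 6 iPSC libraries for 29 genes, and Hoxb1 and Hoxd1 show the opposite order. The share over all genes was not computed.

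The genes with the most reads of their clusters are described first. Hoxa10, a posterior gene of limb and uterus, had 500, 422 and 324 normalised counts (the authors' unit for the reprogramming table; libraries are always given in the order of replicates 1, 2 and 3) in DOX, 447, 380 and 306 in DOX UNC, 332, 360 and 248 in DOX 3C and 376, 342 and 277 in DOX 3C UNC. The third library was the lowest of its group in all 4 conditions, and the groups overlapped. Hoxc8, a thoracic gene, had 195, 255 and 284 in DOX, 268, 232 and 272 in DOX UNC, 234, 215 and 268 in DOX 3C and 320, 242 and 334 in DOX 3C UNC. Its highest values were in DOX 3C UNC, whose second library lay within the range of the other groups. Hoxd13, the most 5′ gene of the Hoxd cluster and a digit gene, had 248, 244 and 275 in DOX, 256, 205 and 227 in DOX UNC, 256, 235 and 200 in DOX 3C and 178, 222 and 201 in DOX 3C UNC. Its DOX and DOX 3C UNC libraries did not overlap, but neither factor's effect on it passed the test. Hoxb9, which had the most reads of the Hoxb cluster, differed with 3C and is described there.

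Adding 3C to DOX changed 7 of the 35 tested Hox genes: 3 rose and 4 fell. Among all 16138 genes tested 24.7% rose and 24.7% fell (limma on log2 of the value plus 1, Benjamini-Hochberg adjusted p below 0.05). Of the 35, 9 had an unadjusted p below 0.05, and whether Hox genes differed from other genes in their share of calls was not tested. The median log2 fold change of the tested Hox genes was -0.01, and that of all genes 0.02. With UNC present, 3C changed 5 Hox genes, 3 higher and 2 lower, where 23.9% of all genes rose and 23.5% fell, and the median was -0.04 against 0.01. In the comparison with UNC 8 of 35 had an unadjusted p below 0.05.

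Hoxc5 had the largest increase of the Hox genes tested (ENSMUSG00000022485, chromosome 15, 103014008 to 103017429). It encodes a central-group factor of the cervical and upper thoracic region, and miR-615 lies within it. It had 52.7, 64.9 and 73.2 normalised counts in DOX, 76.9, 63.6 and 82.1 in DOX UNC, 182, 120 and 185 in DOX 3C and 204, 185 and 246 in DOX 3C UNC. All 6 libraries with 3C lay above all 6 without. The log2 fold change was 1.32 ± 0.18 without UNC (2.499-fold, adjusted p = 6.39e-06) and 1.50 ± 0.18 with UNC (2.83-fold, adjusted p = 1.5e-06), ± standard error.

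The genes on both sides of Hoxc5 did not pass the test. Hoxc4, on its 3′ side, had 76.0, 64.9 and 87.9 normalised counts in DOX, 85.4, 80.0 and 84.8 in DOX UNC, 84.2, 71.1 and 75.7 in DOX 3C and 94.4, 92.1 and 87.3 in DOX 3C UNC (log2 fold change with 3C 0.02 ± 0.14 and 0.13 ± 0.14, adjusted p = 0.917 and 0.491). Hoxc6, on its 5′ side, had 172, 181 and 211 in DOX, 195, 143 and 163 in DOX UNC, 169, 150 and 160 in DOX 3C and 232, 190 and 167 in DOX 3C UNC (-0.23 ± 0.14 and 0.23 ± 0.14, adjusted p = 0.166 and 0.173). In each library the log2 ratio of Hoxc5 to the mean of its neighbours was taken, a measure chosen after the values were seen and given with no test. It was -0.79 ± 0.20 in the 6 libraries without 3C (from -1.10 to -0.51) and 0.59 ± 0.28 in the 6 with 3C (from 0.22 to 1.02), a difference of 1.37. The 2 ranges did not overlap.

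Hoxb9 and Hoxb7, neighbours but for Hoxb8, also rose with 3C. Hoxb9 (ENSMUSG00000020875, chromosome 11, 96271330 to 96276595), a posterior gene of the thoracic region, had 60.1, 64.9 and 89.3 normalised counts in DOX, 76.9, 87.7 and 85.7 in DOX UNC, 117, 110 and 111 in DOX 3C and 118, 165 and 107 in DOX 3C UNC. Again all 6 libraries with 3C were above all 6 without. The log2 fold change was 0.68 ± 0.17 without UNC (adjusted p = 0.00304) and 0.61 ± 0.17 with UNC (adjusted p = 0.00651), and without the second DOX 3C UNC library the latter was 0.43 (adjusted p = 0.0518). Hoxb7 (ENSMUSG00000038721, chromosome 11, 96285604 to 96290163) had 71.1, 60.05 and 57.1 in DOX, 60.6, 65.8 and 75.0 in DOX UNC, 110, 87.4 and 93.4 in DOX 3C and 95.5, 80.0 and 71.8 in DOX 3C UNC. Its DOX and DOX 3C libraries did not overlap, while those of DOX UNC and DOX 3C UNC did. It rose by 0.62 ± 0.16 without UNC (adjusted p = 0.00352) and its value with UNC was 0.29 ± 0.16 (adjusted p = 0.151). Hoxb8, between them, had 8.41 to 24.9 normalised counts in DOX and 14.7 to 17.8 in DOX 3C, and its log2 fold change was -0.00 ± 0.34.

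Over the 35 genes, Hoxc5 and Hoxb9 were the 2 whose 6 libraries with 3C lay wholly above the 6 without, and 0 lay wholly below. For all genes tested the shares were 17.5% above and 18.2% below. Between 2 groups of 3 libraries, 4 Hox genes lay wholly above and 6 below for 3C without UNC, beside 29.2% and 28.4% of all genes. With UNC present, 5 lay above and 4 below, beside 27.5% and 26.9%.

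Of the 4 genes that fell with 3C alone, Hoxa5, Hoxc9 and Hoxb3 are described. Hoxa5 (ENSMUSG00000038253, chromosome 6, 52201754 to 52204587), known for its role in the lung and the cervical spine, had 183, 141 and 168 normalised counts in DOX, 168, 121 and 168 in DOX UNC, 123.4, 94.1 and 107 in DOX 3C and 112, 83.6 and 127 in DOX 3C UNC. The second library was the lowest in each group, and the DOX libraries lay above the DOX 3C libraries without overlap. Hoxa5 fell by 0.60 ± 0.17 without UNC (adjusted p = 0.00708) and by 0.50 ± 0.17 with UNC (adjusted p = 0.0212). The call with UNC was lost when the first or the third DOX UNC library or the second DOX 3C UNC library was left out (adjusted p = 0.087, 0.0879 and 0.128).

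Hoxc9 (ENSMUSG00000036139, chromosome 15, 102977032 to 102984444), a posterior gene active in the thoracic spinal cord, had 62.5, 92.5 and 90.8 normalised counts in DOX, 79.4, 87.7 and 67.8 in DOX UNC, 46.3, 50.4 and 54.8 in DOX 3C and 45.4, 66.7 and 61.9 in DOX 3C UNC. All libraries with 3C lay below those of DOX UNC, and the second DOX 3C UNC library lay above the first DOX library. It fell by 0.67 ± 0.19 without UNC (adjusted p = 0.00699), and its log2 fold change was -0.44 ± 0.19 with UNC (adjusted p = 0.0674, or 0.0348 with the replicate number as a block).

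Hoxb3 (ENSMUSG00000048763, chromosome 11, 96307101 to 96347930), whose span holds Hoxb4 and miR-10a, had 74.8, 70.9 and 90.8 normalised counts in DOX, 88.0, 68.0 and 103 in DOX UNC, 48.6, 49.6 and 64.1 in DOX 3C and 76.9, 49.7 and 78.5 in DOX 3C UNC. The second DOX 3C UNC library lay within the range of DOX 3C. Hoxb3 fell by 0.54 ± 0.20 without UNC (adjusted p = 0.0345), with no overlap, and gave -0.34 ± 0.20 with UNC (adjusted p = 0.18), with overlap. The call without UNC was lost without the first or the third DOX library (adjusted p = 0.0543 and 0.131), without the first or the second DOX 3C library (0.105 and 0.0984), in DESeq2 (0.0534) and with no filter (0.0579).

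Called with UNC but not without it were Hoxb13 and Hoxd12, both with few reads. Hoxb13, a posterior gene of the tail and the prostate, had 14.7, 19.2 and 13.2 normalised counts in DOX, 11.96, 9.86 and 11.6 in DOX UNC, 17.8, 19.3 and 12.4 in DOX 3C and 32.6, 20.6 and 15.5 in DOX 3C UNC. It rose by 0.92 ± 0.31 on the log2 scale with UNC (adjusted p = 0.0218), and the call was lost without the second DOX UNC library (0.0662) or the first DOX 3C UNC library (log2 fold change 0.64, adjusted p = 0.125), in DESeq2 (0.0502) and with no filter (0.0701). Hoxd12, a distal limb gene (ENSMUSG00000001823, chromosome 2, 74675013 to 74677705), had 30.7, 8.41 and 14.6 in DOX, 22.2, 14.2 and 16.1 in DOX UNC, 5.93, 8.89 and 12.4 in DOX 3C and 3.49, 8.49 and 4.42 in DOX 3C UNC. It fell by 1.57 ± 0.44 with UNC (adjusted p = 0.00672), with no overlap, and its value without UNC was -0.78 ± 0.44 (adjusted p = 0.153), where the second DOX library lay within the range of DOX 3C. It had 3 to 26 reads a library, and its call was lost in the fit with the replicate number as a block and all libraries numbered 1 left out (adjusted p = 0.0503). Whether these 2 genes responded to 3C differently in the presence of UNC is the interaction given below, which neither passed.

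**Figure D2:**
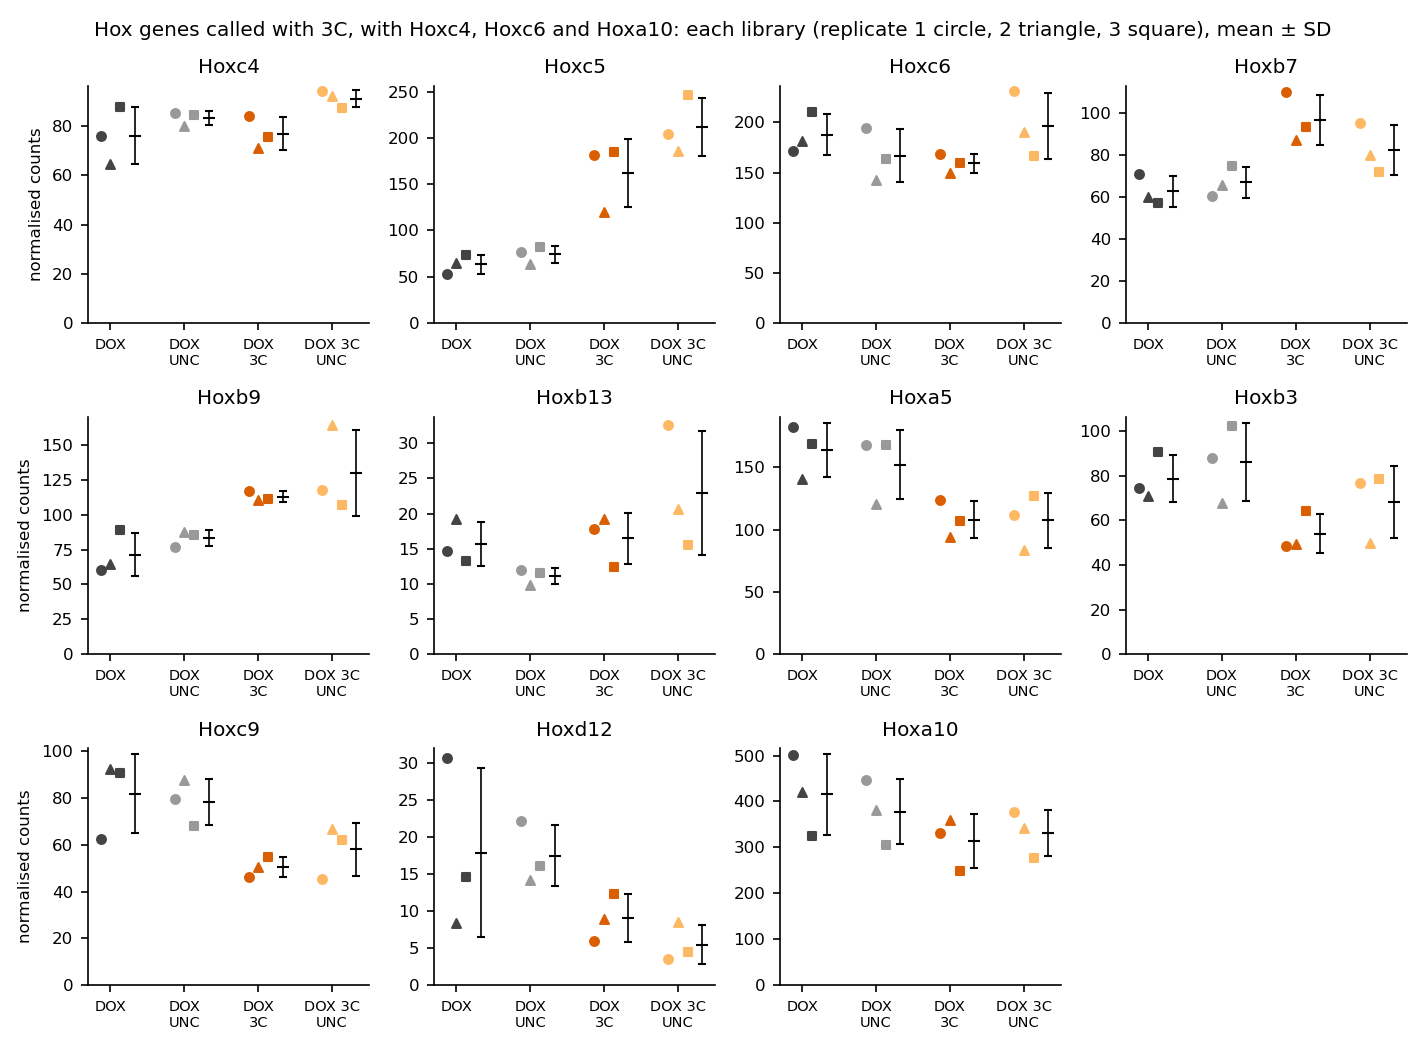
Normalised counts of Hox genes called with 3C that are described in the text, and of Hoxc4, Hoxc6 and Hoxa10, in the 12 reprogramming libraries; symbols stand for replicate numbers, bars for mean ± SD (n = 3), and each axis starts at 0. Hoxc5 and Hoxb9 are higher in all 6 libraries with 3C, and Hoxc4 and Hoxc6 beside Hoxc5 are not.

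Replicate numbers paired the libraries of DOX with DOX 3C and of DOX UNC with DOX 3C UNC. With the number as a block, 3C without UNC changed 9 Hox genes, with Hoxa3 (-0.54, adjusted p = 0.0214) and Hoxa10 (-0.40, adjusted p = 0.00026) added to those that fell. In that fit 8621 of all 16138 genes were called, 4320 higher and 4301 lower. The blocked fit with UNC changed 8, with Hoxa11 (0.34, adjusted p = 0.0278) and Hoxa13 (0.42, adjusted p = 0.0117) added to those that rose and Hoxc9 to those that fell. It called 8307 of all 16138 genes, 4205 higher and 4102 lower. Hoxa13 and Hoxa11 are genes of the distal limb and the genital tract, and Hoxa10 was called without the block too by edgeR (adjusted p = 0.0404) and DESeq2 (0.0278) on the recovered reads. Leaving out a single library also moved uncalled genes past the threshold, Hoxa10 and Hoxb5 for 3C without UNC and Hoxa11, Hoxa13, Hoxc9 and Hoxc13 for 3C with UNC. Hoxb5 went from -0.55 to -0.97 without the second DOX library (adjusted p = 0.0254), and Hoxc13 from 0.44 to 0.97 without the first DOX 3C UNC library (adjusted p = 0.0279).

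The 2 estimates of the 3C effect, which share no library, had Pearson's r = 0.69 and Spearman's rho = 0.63 over the 35 genes, with the same sign for 25 (71.4%). Over all 16138 genes r was 0.89, and the sign was the same for 83.3%. Both values are across genes, which are not independent replicates and which share libraries and clusters. The rank correlation of the log2 fold change with the paralogue group was 0.18 without UNC and -0.04 with UNC (35 genes). By cluster, all 6 tested Hoxd genes had a negative value for 3C with UNC (median -0.21), of which Hoxd12 passed, and 2 of 6 a positive value without UNC.

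**Figure D3:**
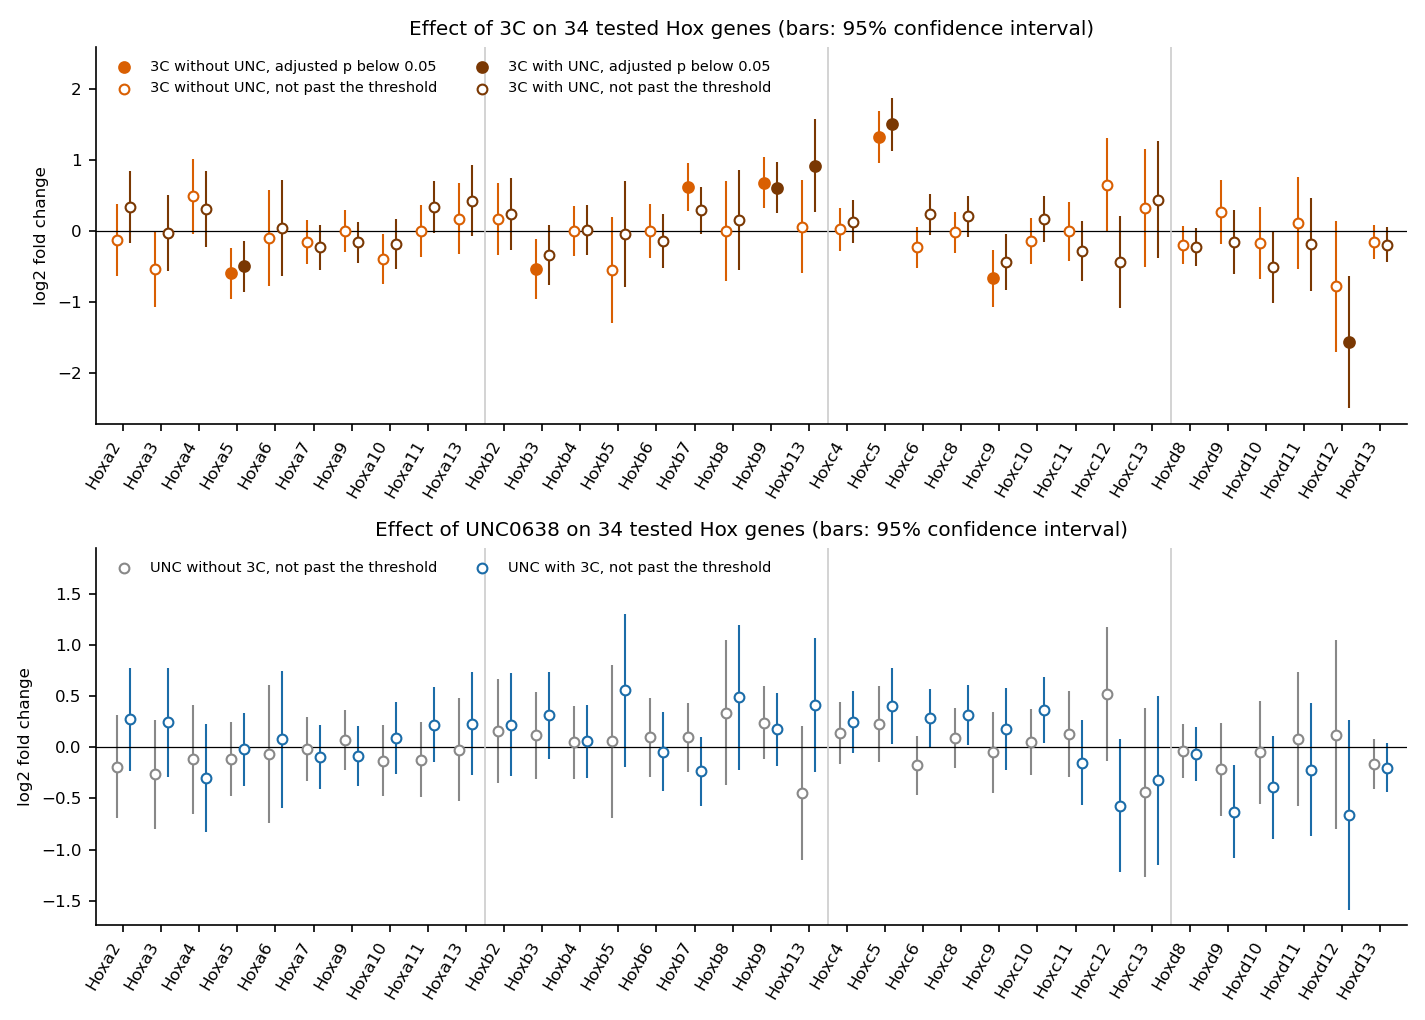
Log2 fold change of 34 tested Hox genes in cluster order with 3C (upper panel) and with UNC (lower panel), each in both conditions of the other factor; bars are 95% confidence intervals and filled points have an adjusted p below 0.05. Hoxc5 stands highest with 3C at 1.32 and 1.50, and no gene is filled for UNC.

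Promoter sequences were at hand for 22 of the 39 genes (24 promoters of 300 bases, 250 before and 50 after the start; RefSeq, GRCm38.p6). They are shown for the genes that fell by most in the 3C comparisons and had an entry, Hoxa5 and Hoxd12. Capitals mark the motif letters found, and the others are in lower case, 5′ to 3′ on the gene's strand.
Hoxa5, chr6:52204538-52204837, minus strand: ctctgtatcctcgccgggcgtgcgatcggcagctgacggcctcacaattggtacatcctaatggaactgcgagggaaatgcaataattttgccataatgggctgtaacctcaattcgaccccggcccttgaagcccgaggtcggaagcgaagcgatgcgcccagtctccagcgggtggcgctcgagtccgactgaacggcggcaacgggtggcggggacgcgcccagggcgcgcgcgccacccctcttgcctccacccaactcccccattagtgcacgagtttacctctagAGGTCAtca
Hoxd12, chr2:74674763-74675062, plus strand: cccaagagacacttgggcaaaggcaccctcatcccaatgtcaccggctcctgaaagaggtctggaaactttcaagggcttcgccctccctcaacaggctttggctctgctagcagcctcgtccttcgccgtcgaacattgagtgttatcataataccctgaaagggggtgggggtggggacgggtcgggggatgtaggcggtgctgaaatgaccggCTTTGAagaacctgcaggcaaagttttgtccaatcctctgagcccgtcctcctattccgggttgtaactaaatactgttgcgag
The 3 motifs below were searched on both strands: CTTTGA, the core bound by TCF/LEF factors of the Wnt pathway, CAGACA, bound by SMADs, and AGGTCA, a half-site of nuclear receptors such as those for retinoic acid. CTTTGA was in 4 of the 24 Hox promoters and 16.0% of 32851 promoters of the same length, CAGACA in 4 of 24 and 21.04%, and AGGTCA in 7 of 24 and 16.3%. The Hoxa5 window holds 29 CpG and the Hoxd12 window 13, beside a median of 14.5 over the Hox promoters and 7 over all. A match describes these letters only.

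Genes that act on or with Hox genes are given here beside the 24.7% of all tested genes that rose and the 24.7% that fell with 3C without UNC, and the counts below were not tested against those shares. At most 3 genes of each list, those with the smallest p, are named. Without UNC, 3C raised 5 and lowered 7 of 27 Polycomb genes, which encode the repressors of silent clusters: Cbx2 (-1.02 ± 0.07), Pcgf5 (-1.28 ± 0.09) and Ezh1 (-0.85 ± 0.07) had the smallest p. Of 11 trithorax genes and other Hox activators 3 rose and 2 fell, among them Psip1 (-0.62 ± 0.06), Dot1l, the H3K79 methyltransferase (0.56 ± 0.09), and the H3K27 demethylase gene Kdm6a (-0.35 ± 0.06). Of 11 TALE genes, whose proteins bind DNA together with Hox proteins, 1 rose and 4 fell, with Pbx3 (-0.75 ± 0.07), Meis3 (-1.07 ± 0.10) and Tgif1 (-0.58 ± 0.07) leading. The list medians were -0.10, -0.00 and -0.22.

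Of 14 genes of retinoid supply and response 4 rose and 6 fell, led by the retinal reductase gene Dhrs3 (-4.96 ± 0.15), the retinoic acid binding protein gene Crabp2 (-1.66 ± 0.13) and the retinol dehydrogenase gene Rdh10 (-0.98 ± 0.10), with a list median of -0.06. Of the readouts of the pathways that the 3C compounds act on, 9 of 14 rose and 3 fell: the Wnt feedback gene Axin2 rose by 5.43 ± 0.27, and the TGF-β feedback genes Skil and Smad7 fell by 2.51 ± 0.07 and 1.47 ± 0.09. Of 31 other positional transcription factor genes of limb and trunk 5 rose and 5 fell, led by Twist1 (1.58 ± 0.08), Emx2 (-1.31 ± 0.13) and Prrx2 (1.07 ± 0.12), with a median of 0.16. With UNC present, where 23.9% of all genes rose and 23.5% fell, 3C raised 5 and lowered 10 of the Polycomb genes, raised 2 and lowered 3 of the Hox activators, raised 2 and lowered 4 of the TALE genes, and raised 3 and lowered 7 of the retinoid genes. It raised 8 and lowered 5 of the positional factors.

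Among 18 tested genes that flank the clusters, 3C without UNC raised 4 and lowered 5 (median -0.03), beside the 24.7% of all genes in each direction. Calcoco1, beside the Hoxc cluster, fell by 1.64 ± 0.10, Atp5g3, beside Hoxd, rose by 0.77 ± 0.05, and Tax1bp1, beside Hoxa, fell by 0.59 ± 0.05. Of the noncoding RNAs and flanking homeobox genes of the clusters, 6 passed the filter, and 0 were called in any comparison, among them Hoxa11os (0.06 ± 0.20 for 3C without UNC), Hoxaas2 (0.23 ± 0.41), Hoxaas3 (-0.24 ± 0.31), Hoxd3os1 (0.58 ± 0.44) and Gm53 (0.00 ± 0.23). Hoxa11os overlaps Hoxa11, and Hoxaas3 overlaps Hoxa3, Hoxa5 and Hoxa6. Hox genes overlap each other too: Hoxa4, Hoxa5 and Hoxa6 lie in the Hoxa3 span, Hoxb4 lies in that of Hoxb3, and Hoxd10 overlaps Hoxd11. Whether reads were counted by strand, and how shared reads were assigned, is not given in the sources used here. Reads of such pairs may be mixed or left out. Markers of cell types changed with the same contrast. Of 12 fibroblast markers 1 rose and 6 fell without UNC (median -0.35), and 5 rose and 5 fell with UNC (median -0.05). All 4 tested neural markers fell, with medians of -0.78 without and -0.94 with UNC, and their sums were 429 to 507 CPM in DOX, 245 to 295 in DOX 3C, 547 to 652 in DOX UNC and 304 to 357 in DOX 3C UNC. Both tested endothelial markers fell, with medians of -1.69 and -1.97. All 3 tested pluripotency markers fell too, with medians of -0.64 without and -0.98 with UNC. The part of the induced allele in these values was not tested. Of 7 epithelial markers 4 rose and 2 fell without UNC, and 5 rose and 2 fell with UNC. The sums of the 8 listed epithelial markers went the other way. They were 88.5 to 101 CPM in DOX, 49.3 to 62.6 in DOX 3C, 103 to 141 in DOX UNC and 72.3 to 87.5 in DOX 3C UNC. The part of these cell types in the Hox values was not tested.

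UNC changed 0 of the 35 Hox genes in DOX, where 0.508% of all genes tested rose and 0.0991% fell. By limma 0 of 35 had an unadjusted p below 0.05, and edgeR and DESeq2 on the recovered reads also called 0. The median log2 fold change was 0.05 for the Hox genes and 0.00 for all genes. Hoxc12 had the highest value, with 13.5, 19.2 and 11.7 normalised counts in DOX and 17.9, 23.02 and 23.2 in DOX UNC (0.52 ± 0.31, adjusted p = 0.656). Hoxb13 had the lowest, -0.45 ± 0.31 (adjusted p = 0.728). The 95% intervals reached from -0.22 to 0.36 for Hoxa9 and from -0.48 to 0.22 for Hoxa10, on the log2 scale, and to 1.17 and -1.27 at the extremes of the 35.

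In 3C, UNC changed 0 Hox genes as well, although 7.71% of all genes rose and 3.94% fell, and 5 of 35 had an unadjusted p below 0.05. edgeR and DESeq2 on the recovered reads called 0. The Hox median was 0.09, and that of all genes -0.00. All 3 libraries with UNC lay above the 3 without for 6 Hox genes and below for 2, beside 16.1% and 12.7% of all genes. Numbers paired these libraries, and with the block, which called 2871 of all 16138 genes, Hoxd9 was called. It had 47.5, 47.4 and 39.4 normalised counts in DOX 3C and 36.1, 30.3 and 20.99 in DOX 3C UNC, with no overlap (-0.63 ± 0.22, adjusted p = 0.0665 without the block and 0.0414 with it). Hoxb5 had the highest value, with 14.2, 13.3 and 17.0 in DOX 3C and 20.97, 18.2 and 28.7 in DOX 3C UNC (0.56 ± 0.35, adjusted p = 0.344), and Hoxd12 the lowest (-0.66 ± 0.44, adjusted p = 0.37). Leaving out the first DOX 3C UNC library gave a call of Hoxd9 (adjusted p = 0.0386), and leaving out the second gave one of Hoxc8 (0.31 ± 0.14 with all libraries, adjusted p = 0.0435 without that library).

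By cluster and position the UNC values in 3C, none of which passed the test, had these signs. All 6 tested Hoxd genes had a negative value (median -0.31), while 7 of 9 Hoxb genes (0.22), 6 of 9 Hoxc genes (0.25) and 7 of 11 Hoxa genes (0.09) had a positive one. The 3C effect with UNC, also negative for these 6 Hoxd genes, used the same DOX 3C UNC libraries, so the 2 are not separate observations. All 5 anterior genes were positive (0.22 to 0.31), 8 of 14 central genes and 7 of 16 posterior genes. The rank correlation with the paralogue group was -0.38 over 35 genes, given as a description. In DOX alone 2 of 6 Hoxd genes were positive. Fibroblast markers rose in the same comparison, 9 of 12 with a median of 0.65, and 2 of 3 tested pluripotency markers fell (median -0.42). The part of these markers in the Hox values, and of the induced allele in the pluripotency markers, was not tested. Of the other lists, UNC in 3C raised 4 of 11 TALE genes, led by Meis3 (0.55 ± 0.10), and lowered 3 and raised 1 of 27 Polycomb genes, with Suz12 (-0.26 ± 0.06) and Ezh2 (-0.26 ± 0.07) first. Of the activators it lowered 1 of 11, Kmt2a (-0.49 ± 0.11), which encodes the trithorax methyltransferase MLL1. UNC in 3C raised 5 and lowered 0 of 31 other positional transcription factor genes (median 0.23).

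The difference of the 2 UNC effects, the interaction, was called for 0 Hox genes, and for 0.0434% (higher) and 0.0186% (lower) of all genes. An unadjusted p below 0.05 was found for 2 of 35, and edgeR and DESeq2 called 0. The lowest value was that of Hoxc12, which had 24.9, 24.4 and 20.8 normalised counts in DOX 3C and 9.32, 21.8 and 17.7 in DOX 3C UNC, opposite in sign to its values in DOX (-1.09 ± 0.44, adjusted p = 0.349). The highest was Hoxb13 (0.86 ± 0.44, adjusted p = 0.496). For Hoxd12 it was -0.79 ± 0.62 (adjusted p = 0.692). The 2 UNC effects share no library, and over the 35 genes they had r = 0.02 and the same sign for 19 (54.3%), beside r = 0.38 and 61.9% over all genes.

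The median SD of the tested Hox genes within groups was 0.247 on the log2 scale, and that of all tested genes 0.129, while their median level was 67.2 normalised counts against 304. The 4 conditions accounted for a median of 38.5% of a Hox gene's sum of squares and 69.0% of that of all genes. Of the spread within groups, the replicate number took a median of 49.1% for Hox genes and 31.1% for all genes. Part of such shares arises without any effect of condition or number, and it was not subtracted here or below.

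The deviations by replicate number are given here along the clusters, as a description. In the libraries numbered 2, 18 of the 19 tested genes of groups 1 to 8 were below their group means on average over the 4 conditions (median -0.15 on the log2 scale), and 13 of the 16 posterior genes were above (median 0.07). Hoxd8 was the exception among the former. In the libraries numbered 3, 14 of 19 were above (0.09) and 12 of 16 posterior genes below (-0.18). The 3 deviations of a gene sum to 0, so the values for number 3 are partly set by those for number 2. The rank correlation of the deviation with the paralogue group was 0.70 for number 2, -0.63 for number 3 and 0.09 for number 1 (35 genes, which share the same 12 libraries). In the Hoxa cluster, Hoxa7, Hoxa9, Hoxa10, Hoxa11 and Hoxa13 were below the group mean in the third library in 4 of 4 conditions, and Hoxa2, Hoxa3, Hoxa5, Hoxa6 and Hoxa7 in the second library in 4 of 4. Replicate number took 91.9% of the within-group spread of Hoxa10, 89.6% of that of Hoxa13 and 86.1% of that of Hoxa5, and 3.14% of that of Hoxd13. Numbers 1, 2 and 3 have no order of their own, and the labels do not say what a number stands for.

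**Figure D4:**
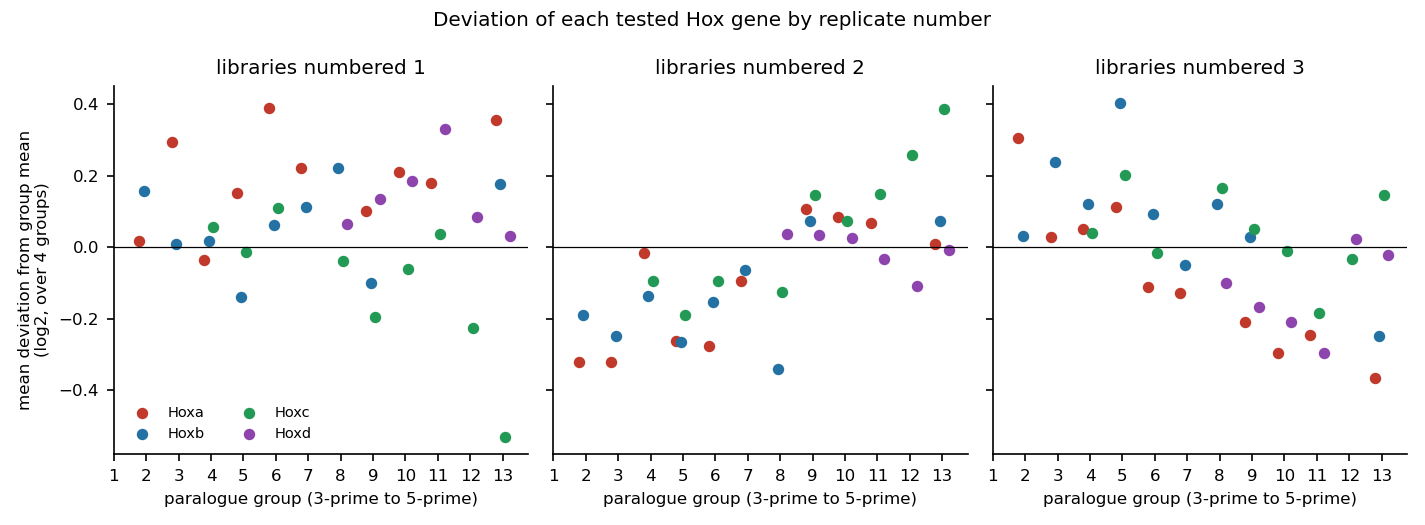
Deviation of 34 tested Hox genes from its group mean (log2, mean over 4 conditions) against its paralogue group, for libraries numbered 1, 2 and 3, colored by cluster. In libraries numbered 2 the genes of groups 1 to 8 lie below 0 except Hoxd8, and in libraries numbered 3 most posterior genes do.

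In the iPSC libraries the 39 genes together took 26.6 ± 1.66 CPM with DMSO and 32.3 ± 1.06 CPM with UNC (n = 3), beside 209 to 223 CPM as means of the reprogramming groups. The 2 tables were made and normalised separately, so levels are set side by side here with no test. For 29 genes all 12 reprogramming libraries were above all 6 iPSC libraries, for 8 the ranges overlapped, and for Hoxb1 and Hoxd1 the iPSC were higher. The share of all genes that separated in this way was not computed, so these counts do not show a trait particular to Hox genes. Hoxa9 had a median of 18.8 CPM in reprogramming and 0.501 in iPSC, a ratio of 37.4, and Hoxc5 6.602 and 0.225, a ratio of 29.3.

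Among the 8 genes whose ranges overlapped were Hoxb8, Hoxb9, Hoxb13, Hoxc13, Hoxd3, Hoxd4 and Hoxd12. Hoxb9 had a median of 6.39 CPM in reprogramming and 3.88 in iPSC, Hoxb8 1.21 and 0.660, and Hoxb13 0.982 and 0.507. Hoxc13, the most 5′ gene of its cluster and a hair and nail gene, had a median of 1.57 CPM in reprogramming and 3.13 in iPSC, where it ranged from 2.69 to 4.12. Hoxd1 had 1 read over the 12 reprogramming libraries and 63 over the 6 iPSC libraries, and Hoxb1 had 0 and 21. Beside Hoxb9, Mir196a-1 had 0.777 ± 0.0911 CPM in DMSO iPSC and 0.241 ± 0.151 in DOX, and Gm53 had 9.26 ± 0.954 and 5.84 ± 1.92. Hoxd3 and Hoxd4 had 0 reads in all 6 iPSC libraries, beside 0 to 4 and 0 to 2 reads a library in reprogramming.

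UNC iPSC and DMSO iPSC differed in 0 of the 23 Hox genes tested, where 1.27% of 17987 genes rose and 0.0389% fell (edgeR quasi-likelihood test). DESeq2 also called 0, and 4 of 23 had an unadjusted p below 0.05 in edgeR. Of the 23 values 16 were positive, with a median of 0.41 against -0.01 for all genes. In 6 of the 23, Hoxa5, Hoxa10, Hoxa11, Hoxc8, Hoxc10 and Hoxd13, all UNC libraries were above all DMSO libraries in CPM, and in 0 all were below, while 8.95% of all tested genes had UNC above and 10.3% had it below. Hoxa5 had 0.504, 0.512 and 0.458 CPM with DMSO and 1.50, 1.14 and 1.02 with UNC, on 11 to 13 and 22 to 37 reads, with no overlap (1.32 ± 0.30, adjusted p = 0.0679). Hoxa10 had 1.22, 1.30 and 0.542 CPM with DMSO and 2.31, 1.83 and 1.95 with UNC, again with no overlap (0.99 ± 0.30, adjusted p = 0.204). With no expression filter both passed, at adjusted p = 0.0131 and 0.0133.

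Hoxd13 (2.14, 2.09 and 1.50 against 3.61, 2.92 and 2.45 CPM) and Hoxa11 (0.588, 0.590 and 0.667 against 1.14, 1.02 and 0.926 CPM) did not overlap either and did not pass (adjusted p = 0.248 and 0.311), and neither did Hoxc8 and Hoxc10 (adjusted p = 0.418 and 0.559). The lowest value was that of Hoxc12 (-0.42 ± 0.43, adjusted p = 0.738). Hoxc5, with 1 to 13 reads a library, was not among the genes tested. Of the other lists 0 of 27 Polycomb genes, 0 of 11 TALE genes and 0 of 16 retinoid genes were called, and of 12 activators Cdx1 fell (-0.65 ± 0.11, adjusted p = 0.0172). Of 28 other positional transcription factor genes 1 rose and 0 fell, and their median was 0.36, beside 0.41 for the Hox genes. Of 14 readouts of the Wnt and TGF-β pathways 2 rose and 0 fell (median -0.09). Fibroblast markers rose with the same contrast, 9 of 12 with a median of 0.61, their sums did not overlap between the groups, and their part in the Hox values was not tested.

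**Figure D5:**
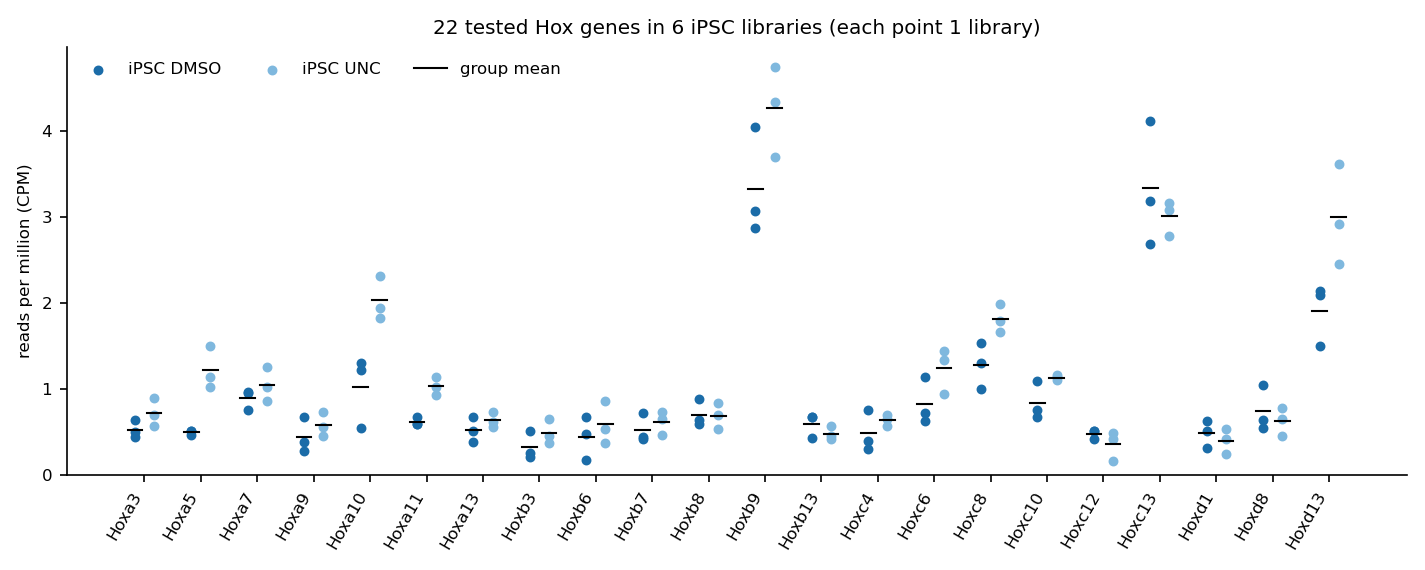
Levels in CPM of 22 tested Hox genes in 3 DMSO and 3 UNC iPSC libraries, each point 1 library, with the mean of each group as a line. Hoxa5, Hoxa10, Hoxa11, Hoxc8, Hoxc10 and Hoxd13 do not overlap between the groups, and none of the 22 passed the test.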

How the data were processed

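The reprogramming table held signal: per its values, the authors had divided each library's read counts by 1 factor, giving the deposited normalised counts. Whole reads were recovered for 100% of values within 0.01 read. For the iPSC the authors deposited raw counts. The submitters' processing notes name DESeq, HTSeq 0.5.4p3, SAMtools 1.8 and TopHat2 2.1.0, and the build mm10. There were 2 columns with no matching sample, which were left out.

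For reprogramming, log2 of the value plus 1 was fitted with limma 3.58.1 (empirical Bayes with trend; R 4.3.3) over 12 libraries and all genes with at least 10 in at least 3. For the iPSC counts the quasi-likelihood test of edgeR 4.0.16 was used, with TMM factors and filterByExpr. Benjamini-Hochberg adjustment ran over all tested genes, and an adjusted p below 0.05 was a call. Scripts were tested on simulated data. Alternatives were a pseudocount of 4, no filter, edgeR and DESeq2 1.42.0 on recovered reads, a replicate block and leaving out libraries.

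Same-numbered libraries deviated together by correlations of 0.110 to 0.191 (DOX 3C with DOX 3C UNC), 0.106 to 0.156 (DOX with DOX 3C) and 0.155 to 0.205 (DOX UNC with DOX 3C UNC), so these numbers were taken as pairs. For DOX with DOX UNC (0.094 to 0.223) and the iPSC (0.071 to 0.156) they were not. Libraries of different numbers gave -0.197 to 0.132 in the iPSC, which overlapped the same-numbered values. In DOX with DOX UNC they gave -0.194 to -0.013, all below 0 as in the comparisons taken as pairs. The numbers may therefore pair DOX with DOX UNC too. The main test did not use the numbers in any comparison, also where they were taken as pairs. The fit with the number as a block is given as an alternative.

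Members and gene lists were chosen with earlier results of these data known. Per-library values are given for Hox genes called in any comparison, with the most reads of a cluster or with the largest difference each way, and at most 3 genes of another list by smallest p. The values of 1 Hox gene are not reported here, although counts, sums and medians include it.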

Additional observations from a re-analysis of the deposited data

How the results depend on the processing

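Medians below are log2 fold changes of the tested Hox genes, and each setting changed 1 choice unless 2 are named. Leaving out 1 library in turn moved the median from -0.0526 to 0.0617 for UNC without 3C, from -0.1004 to 0.0224 for 3C without UNC, from -0.1641 to 0.088 for 3C with UNC, from -0.0283 to 0.1584 for the interaction and from 0.2649 to 0.4038 for the iPSC. It gave 0 to 1 called Hox genes for UNC with 3C. For UNC without 3C the median was -0.0342 by edgeR and -0.029 by DESeq2 on recovered reads. With the replicate block UNC with 3C called 1 Hox gene and 3C with UNC 8, beside 2871 and 8307 of all 16138 genes. Settings added after seeing the data were the block in edgeR (3 for UNC with 3C, 9 for 3C with UNC) and the block with all libraries of 1 number left out, which without number 1 gave 1 for UNC with 3C, and without number 3 an interaction median of 0.0152. With no filter the iPSC gave 2 called Hox genes and a median of 0.2559. The causes were not tested. The block, not taken as pairing for UNC without 3C and the iPSC, called 0 Hox genes there. Over 28 single-gene results, 343 alternative values kept direction and side of the threshold, 24 lost and 40 gained the call, and 0 reversed. These results were those called in the main fit or in an alternative other than leaving out 1 library. That choice favours large values, and all settings reuse the same libraries, so the lack of reversals is partly set by it. Hoxc5, Hoxb9, Hoxb7, Hoxa5 and Hoxc9 kept their calls for 3C without UNC in all 15 alternatives. Genes with under about 20 normalised counts rest on few reads. Over all genes, UNC without 3C called 98, against 19 to 146 with 1 library left out (25 and 48 without the first or the third DOX library, 34 and 19 without the second or the third DOX UNC library), 168 by DESeq2, 409 with the block and 416 with the block in edgeR. UNC with 3C called 1880, against 1034 to 1921 with 1 left out (1034 without the second DOX 3C library, 1135 without the third DOX 3C UNC library), 2871 and 3120 with those blocks. The interaction called 10, against 0 to 70 with 1 left out (0 without the second DOX library, 70 without the first DOX 3C library), 26 at a pseudocount of 4, 17 by edgeR, 160 by DESeq2, 413 and 479 with the blocks. The iPSC called 236, against 85 to 216 with 1 left out (85 and 111 without the first or second UNC library, 156 without the first DMSO library), 395 by DESeq2, 823 with no filter and 407 with the block.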
